A study of Pseudopodoces humilis with 2 samples.

Results

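Single-exon loci outside spliced loci are stretches of the ground tit genome that were assembled from RNA as 1 unbroken block, with no intron, and that lie apart from every assembled transcript with introns. They were taken from 3 transcript assemblies, 1 of liver and 2 of muscle, named muscle-2 and muscle-3. Transcripts of 1 exon and 200 bases or more were merged over the assemblies wherever they shared a base, which gave 11925 loci. Of these, 6153 shared no base with the span of any transcript of 2 or more exons in any assembly, and these are the loci described here. The other 5772 lay on a spliced span, and 4565 of them (79.1%) shared bases with a spliced exon. The rule used positions only and no level of expression.

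The study sequenced total RNA of liver and muscle of Pseudopodoces humilis, a songbird, to help annotate its genes, with 1 sample per tissue and no treatment. The labels give neither the age, sex or number of the birds nor how the muscle assemblies differ. With 1 sample per tissue, no difference between tissues was tested. Intervals are Wilson 95% intervals for shares and distribution-free 95% intervals for medians. They cover counting error over loci, which are not replicates. The assemblies hold no read counts, so the depth behind a locus is unknown.

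Most vertebrate genes are interrupted by introns, and the reads that cross a splice junction also show a transcript's strand when the library itself does not keep it. A block without junctions carries no such sign. Known single-exon RNAs include messages of intronless genes, such as those of replication-dependent histones and many odorant receptors, and some long noncoding RNAs. Short-read assembly also yields single blocks as pieces of longer transcripts, for instance of long 3' untranslated regions (UTRs), the last part of a message after its coding sequence. Which of these kinds a given locus belongs to was not tested, since the files give neither sequence nor names. Each of the 6078 liver, 9983 muscle-2 and 7349 muscle-3 single-exon transcripts was without a strand.

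Muscle held most of the loci. Liver held 2073 of the 6153 (33.7%, 32.5 to 34.9), muscle-2 held 5146 (83.6%, 82.7 to 84.5) and muscle-3 held 2942 (47.8%, 46.6 to 49.1). By tissue, 582 loci (9.46%) were found in liver only, 4080 (66.3%) in muscle only and 1491 (24.2%) in both. The largest of the 7 presence classes was muscle-2 alone, with 2442 loci (39.7%). Both muscle assemblies without liver shared 1283 loci (20.9%), and all 3 assemblies shared 1234 (20.1%). The smaller classes were 355 loci of muscle-3 alone, 187 of liver with muscle-2 and 70 of liver with muscle-3.

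**Figure D1:**
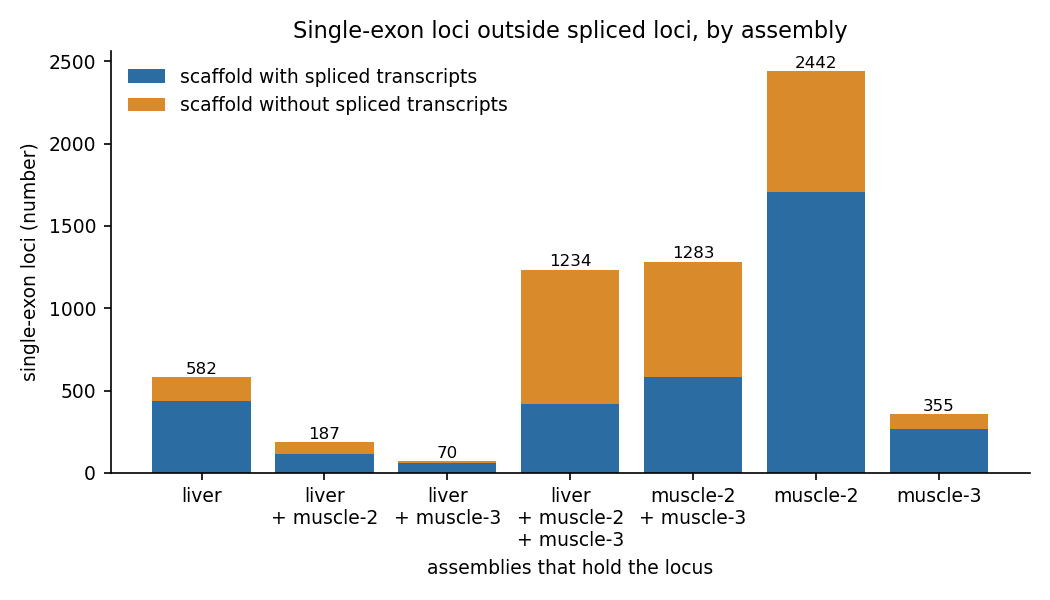
Number of single-exon loci outside spliced loci (vertical axis) by the assemblies that hold them (horizontal axis), split into those on scaffolds with and without any spliced transcript; the number above a bar is its total. The bar of muscle-2 alone is the highest at 2442 loci, and 815 of the 1234 loci of all 3 assemblies stood on scaffolds without a spliced transcript.

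These loci recurred between assemblies far less often than spliced loci did, though more often than single-exon loci on spliced spans. A share of 54.9% (53.7 to 56.2) was found in 1 assembly only, against 14.6% (14.0 to 15.2) of the 13302 merged spliced loci. The measures are not alike. A spliced locus is a merged span with its introns, and any spliced transcript in that span counted as presence. Of the loci in muscle-2, 48.9% were also in muscle-3, against 87.7% of the spliced loci, and of those in muscle-3, 85.6% were also in muscle-2, against 95.9%. Of those in liver, 71.9% (70.0 to 73.8) were also in muscle, as were 9428 of the 9928 spliced loci of liver (interval 94.5 to 95.4%). In the other direction, 26.8% of the muscle loci were also in liver, against 73.6% of spliced loci. The share in liver depended on which muscle assembly was used: it was 36.2% with muscle-2 as the only muscle assembly and 50.6% with muscle-3 as the only one. With 1 muscle assembly in place of 2, either one still held more of the loci than liver did. Whether that excess comes from the tissue, from the assembly or from the rule that defines the loci cannot be told apart. Of the 5772 single-exon loci on spliced spans, 76.4% (75.2 to 77.4) were in 1 assembly only. Of those in muscle-2, 34.5% were also in muscle-3, and of those in liver, 34.0% were also in muscle. Only single-exon transcripts counted as presence there, and another assembly can hold the same bases as spliced.

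What counts as outside also depended on looking at all assemblies together. Taken by itself, the liver assembly left 4118 single-exon loci outside its own spliced loci, and 1879 of these (45.6%) lay on a span that was spliced in a muscle assembly. Nearly all of those 1879 shared bases with a spliced exon there (1759, or 93.6%), while 120 lay in introns alone. For muscle-3 the same held for 1382 of 4570 loci (30.2%), with exon bases shared by 1235. Muscle-2 stood apart: 837 of 6155 loci (13.6%) lay on spans spliced elsewhere, and 361 of these (43.1%) lay in introns alone. The rule thus left out a larger share of the liver loci than of the loci of either muscle assembly. Before it, liver had 4118 loci and muscle-3 had 4570. Among the loci described here, liver held 2073 and muscle-3 held 2942.

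Loci came in 2 settings that differed in size. On 928 scaffolds that also held spliced transcripts there were 3583 loci (58.2%). The other 2570 (41.8%) stood on 2443 scaffolds with no spliced transcript in any assembly, and 2336 of those scaffolds carried 1 locus only. On the scaffolds without spliced transcripts, 1669 of the 2570 loci (64.9%, 63.1 to 66.8) began within the first 100 bases of the scaffold, against 49 of the 3583 (1.37%, 1.04 to 1.80) on scaffolds with spliced transcripts. The last position of a locus had a median of 496 bases (480 to 511) on scaffolds without spliced transcripts and 519792 bases (482303 to 546551) on scaffolds with spliced transcripts. Scaffold lengths themselves are not given, so a block that ended because its scaffold ended could not be told from a whole transcript.

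Length followed this split. Loci on scaffolds without spliced transcripts had a median of 362 bases (348 to 375), with quartiles of 256 and 601, and 270 of them (10.5%) reached 1000 bases. Loci beside spliced transcripts had a median of 1219 bases (1199 to 1244), with quartiles of 869 and 1812, and 2360 (65.9%) reached 1000 bases. Those that shared bases with spliced spans had a median of 1335 bases (1309 to 1372). Over all 6153 loci the median was 853 bases (833 to 878), the total was 6.95 Mb, and 89 loci were 5000 bases or longer. At the lower limit, 125 loci were 200 to 209 bases long, and just outside it were 182 loci whose longest transcript had 190 to 199 bases.

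**Figure D2:**
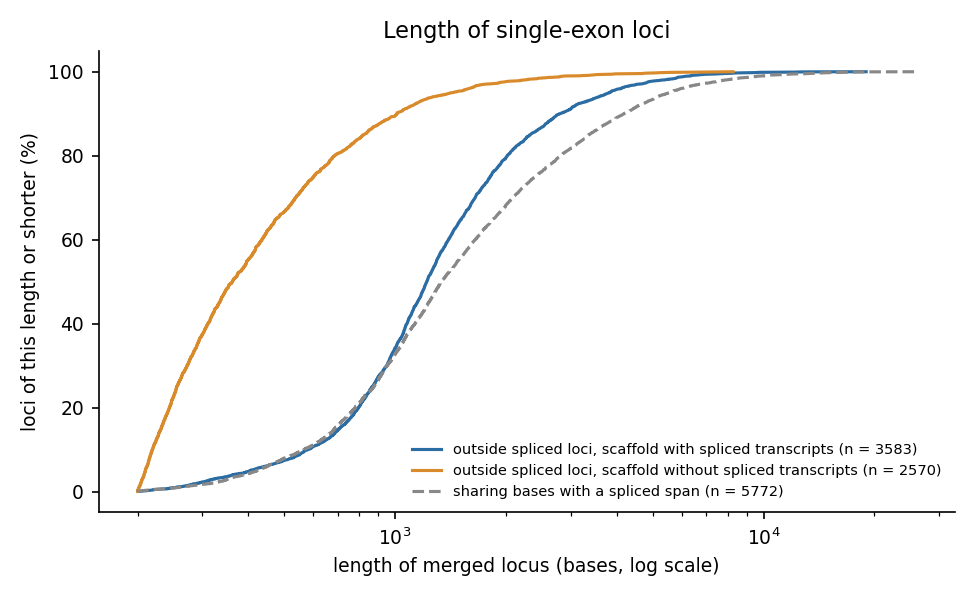
Cumulative share of loci (vertical axis, percent) by length in bases (horizontal axis, log scale) for single-exon loci outside spliced loci on scaffolds with and without spliced transcripts, and for those that share bases with a spliced span. The curve of scaffolds without spliced transcripts crosses 50% at 362 bases, well left of 1219 and 1335 bases for the other curves.

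Sharing between assemblies also differed between the settings. On scaffolds without spliced transcripts, 31.7% (29.9 to 33.5) were held by all 3 assemblies and 37.9% (36.0 to 39.8) by 1 only, against 11.7% (10.7 to 12.8) and 67.1% (65.6 to 68.6) beside spliced transcripts. The class of liver with muscle-3 went the other way, with 8 loci (0.311%) on scaffolds without spliced transcripts and 62 (1.73%) beside them. Liver with muscle-2 had similar shares, 2.84% (2.27 to 3.56) and 3.18% (2.66 to 3.81), whose intervals overlap. Liver held 40.5% of the loci on scaffolds without spliced transcripts and 28.8% of those beside spliced transcripts. To see whether recurring loci were longer, lengths were read within 1 assembly, from the first to the last base that it held in the locus. Where an assembly held 2 or more blocks in a locus, any bases between them counted, so the effect of merging is not wholly removed. Such loci were 74 of 2073 in liver (3.57%), 97 of 5146 in muscle-2 (1.88%) and 117 of 2942 in muscle-3 (3.98%). Beside spliced transcripts the lengths within muscle-2 had a median of 1364 bases (1263 to 1459) where another assembly held the locus too. Where none did, the median was 1178 bases (1147 to 1203). In liver the same medians were 1123 (1035 to 1177) and 1104 bases (1042 to 1153), whose intervals overlapped, as did those of muscle-3, 1164 (1085 to 1213) and 1129 bases (1071 to 1199). In the upper tail, 10% of the lengths within liver were above 3530 bases at shared loci, against 1965 bases at loci of liver alone. How many of those long shared loci held 2 or more liver blocks was not counted. Since 1 shared base makes a locus shared, a longer block meets that rule more easily. The contrasts of length between shared and unshared loci are therefore partly set in advance and are given as description.

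The ends of a shared block were often close to the same place in liver and muscle. Of the 1234 loci of all 3 assemblies, 56.6% (53.8 to 59.3) had both ends within 50 bases of each other in liver and muscle-2, and 60.5% (57.7 to 63.1) in liver and muscle-3. Between muscle-2 and muscle-3 the share was 65.0% (62.3 to 67.6). On scaffolds without spliced transcripts, which held 815 of the 1234, these shares were 69.9%, 73.7% and 77.4%. Beside spliced transcripts they were 30.5%, 34.6% and 40.8%. Whether scaffold ends set the ends of these loci was not tested. The liver block was the longer in 231 and the shorter in 966 of the 1234 when set against muscle-2, and the longer in 369 and the shorter in 828 against muscle-3. Between the muscle assemblies, the muscle-2 block was the longer in 848 and the shorter in 316 when set against muscle-3, so blocks differed in length within muscle too.

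Beside spliced transcripts, the loci lay close to them and mostly at the 3' side, where transcription of a gene ends. The median distance to the nearest spliced span was 2006 bases (1863 to 2161), with quartiles of 475 and 6948. Within 1 kb lay 1337 of the 3583 loci (37.3%, 35.7 to 38.9), within 5 kb 2457 (68.6%, 67.0 to 70.1) and within 50 kb 3407 (95.1%). The smallest distance was 3 bases. The nearest end was a 3' end for 2106 loci (58.8%, 57.2 to 60.4), a 5' end for 1142 (31.9%, 30.4 to 33.4) and, for 335, a spliced locus with transcripts of both strands. Leaving those 335 out, the 3' end was the nearer in 78.2% (72.9 to 82.7) of the 275 loci under 100 bases away, 62.0% from 100 to 500 bases, 70.2% from 1000 to 2000 bases and 51.0% (44.2 to 57.6) from 20000 to 50000 bases. At that last range the interval spans equal shares.

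Distance varied with where a locus was assembled. Loci of both tissues lay at a median of 1164 bases (929 to 1439), against 2495 bases (1935 to 3083) for liver only and 2126 bases (1974 to 2303) for muscle only. Within muscle only it was 2294 bases for muscle-2 alone, 1825 for both muscle assemblies and 1657 for muscle-3 alone. Merged loci were also longer, with a median of 1526 bases in all 3 assemblies against 1104 in liver alone. How far merging brought their edges nearer to a neighbour was not tested. The 3' end was the nearest for 62.9% (58.3 to 67.3) of the liver-only loci, 58.1% (56.1 to 60.0) of the muscle-only loci and 58.8% (54.8 to 62.7) of those of both tissues, and these intervals overlap.

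Gaps between neighbouring spliced loci of the same strand give an even comparison, because each has a 3' end on one side and a 5' end on the other. In these tandem gaps 825 of 1250 loci were nearer to the 3' end (66.0%, 63.3 to 68.6), where a place without preference would give equal shares. Their median distance was 3780 bases to the 3' end and 11804 bases to the 5' end. The tenth of the gap next to the 3' end held 450 loci (36.0%), the tenth next to the 5' end held 175 (14.0%), and each of the other parts held from 43 to 148. The share nearer to the 3' end was 67.9% (60.4 to 74.6) for liver only, 65.2% (62.0 to 68.2) for muscle only and 68.6% (61.4 to 75.0) for both tissues. It was above 50% in each of the 7 presence classes, from 62.7% in both muscle assemblies without liver to 79.3% of 29 loci of liver with muscle-3. With each assembly taken by itself, its own single-exon loci between its own spliced loci, it was 72.8% (70.2 to 75.3) in liver, 61.7% (59.1 to 64.3) in muscle-2 and 64.5% (61.6 to 67.4) in muscle-3. Those sets also hold loci on spans spliced in another assembly, which are not among the loci described here. Over all loci outside an assembly's own spliced loci, these made up 45.6% in liver, 13.6% in muscle-2 and 30.2% in muscle-3. Since the blocks have no strand, the shares nearer to the 3' end do not say whether a block was transcribed in the direction of its neighbour.

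**Figure D3:**
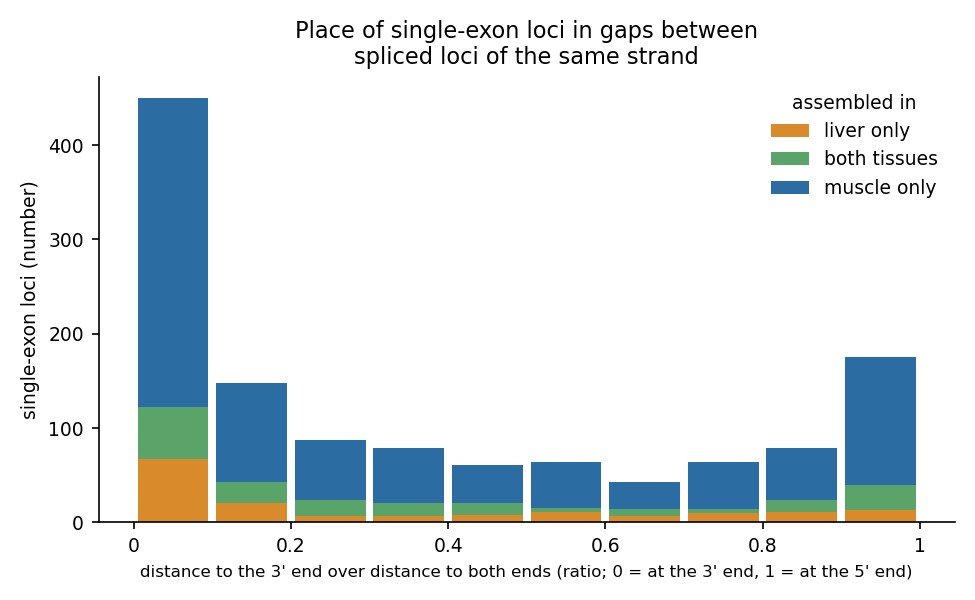
Number of single-exon loci (vertical axis) in gaps between spliced loci of the same strand, coloured by the tissues that assembled them. The horizontal axis is the distance to the 3' end over the distances to both ends, 0 at the 3' end and 1 at the 5' end. The 450 loci of the tenth next to the 3' end exceed the 175 next to the 5' end, and each of the parts between holds from 43 to 148.

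The number of loci also differed with the orientation of the gap. Convergent gaps, with a 3' end on each side, held 728 loci in 82.9 Mb (8.78 per Mb), and 24.5% (22.6 to 26.4) of the 1970 gaps held at least 1 locus. Tandem gaps held 7.53 per Mb, and 18.7% (17.6 to 19.9) of 4498 gaps held one. Divergent gaps, with a 5' end on each side, held 343 loci in 70.4 Mb (4.87 per Mb), and 12.2% (10.8 to 13.7) of 1942 gaps held one. Gaps beside a spliced locus with transcripts of both strands held 8.02 per Mb, and 15.6% (14.2 to 17.1) of 2363 held one. Median widths were 6330 bases for convergent, 7561 for tandem, 7950 for divergent and 4913 for these mixed gaps.

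Cover by distance showed how far the excess reached. With each base of a gap assigned to its nearer end, single-exon loci covered 1.74% of the first 200 bases beyond 3' ends and 0.561% of those before 5' ends. From 1000 to 2000 bases they covered 8.59% beyond 3' ends, the highest of the bins, and 3.47% before 5' ends. From 5000 to 10000 bases it was 2.98% and 1.23%, and from 20000 to 50000 bases 0.397% and 0.286%. Loci assembled in liver showed the same shape, with 2.90% and 0.997% from 1000 to 2000 bases, as did those assembled in muscle, with 7.69% and 3.15%.

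**Figure D4:**
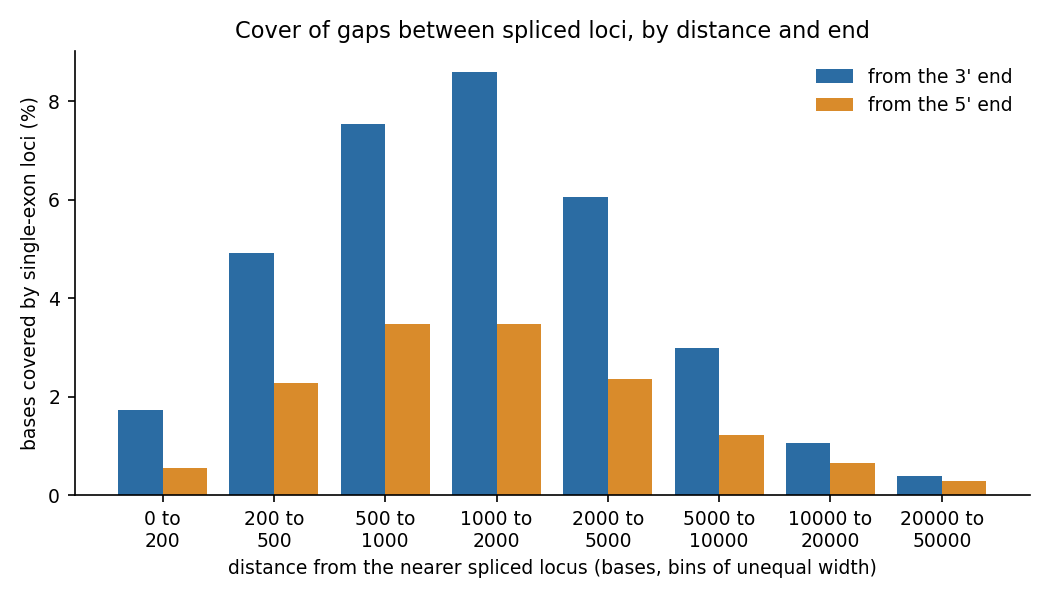
Share of gap bases covered by single-exon loci (vertical axis, percent) by distance from the nearer spliced locus in bases (horizontal axis, bins of unequal width), beyond 3' ends and before 5' ends. Cover is higher beyond 3' ends in every bin drawn, with its peak of 8.59% at 1000 to 2000 bases.

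Beyond 3' ends, the spliced neighbour of a block of 1 tissue was of that tissue alone more often than spliced loci were in general. Most neighbours were still of both tissues. Among 113 pairs of a liver-only block and a spliced 3' end within 1 kb, the spliced locus was itself liver only in 39 (34.5%, 26.4 to 43.7), against 492 of all 11844 spliced loci with 1 strand (4.15%, 3.81 to 4.53). Among 564 pairs with a muscle-only block it was muscle only in 238 (42.2%, 38.2 to 46.3), against 27.6% (26.8 to 28.4) of all. The neighbour was of both tissues in 69 of the 113 pairs (61.1%) and 320 of the 564 (56.7%), against 68.2% of all. Crossed pairs were rare: 5 muscle-only neighbours of liver-only blocks (4.42%) and 6 liver-only neighbours of muscle-only blocks (1.06%). Before 5' ends it was liver only in 6 of 37 pairs with a liver-only block (16.2%, 7.65 to 31.1). That interval overlaps the one at 3' ends and also lies above the 4.15% of all spliced loci. It was muscle only in 80 of 319 pairs with a muscle-only block (25.1%, 20.6 to 30.1), an interval that includes the share of all spliced loci. Read from the other side, 11.6% (9.05 to 14.7) of liver-only spliced loci, 8.49% (7.59 to 9.50) of muscle-only ones and 6.61% (6.09 to 7.17) of those of both tissues had a block within 1 kb beyond their 3' end. Before the 5' end it was 4.47%, 2.96% and 4.06%. How levels of the neighbours differed between tissues was not tested, because the gene table gives no positions.

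About 1 in 5 loci stood in a cluster. Another locus lay within 1 kb of 1227 of the 6153 (19.9%, 19.0 to 21.0), in 537 runs of 2 or more members. Of these runs 419 were pairs, 92 had 3 members, 18 had 4, 7 had 5 and 1 had 6. On scaffolds with spliced transcripts 29.9% (28.5 to 31.5) of loci were in a cluster, against 5.99% (5.14 to 6.98) elsewhere. Of the scaffolds without spliced transcripts, 2336 of 2443 hold 1 locus and so can hold no cluster. This contrast is thus largely set by the number of loci on a scaffold. Between the classes beside spliced transcripts the share ranged from 22.7% (18.9 to 26.9) in all 3 assemblies to 36.0% (27.7 to 45.1) in liver with muscle-2. Close blocks that another assembly bridged were merged into a single locus. The share by class carries this effect of merging, which was not measured apart. The median run spanned 3478 bases.

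Members of a cluster were usually assembled in the same places. Neighbouring loci 100 to 1000 bases apart had the same presence class in 321 of 527 pairs (60.9%, 56.7 to 65.0), against 306 of 1004 pairs (30.5%, 27.7 to 33.4) at 100 kb or more. Close pairs are those that no assembly bridged, since bridged blocks were merged. For pairs with a liver-alone member, both were liver alone in 56 of 79 (70.9%, 60.1 to 79.7) at 100 to 1000 bases and in 21 of 238 (8.82%, 5.84 to 13.1) at 100 kb or more. Runs with 1 class throughout numbered 307 of 537, and 15 runs held both a liver-only and a muscle-only member.

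The run with the most members lay on scaffold22717 from position 518045 to 527341, with 6 blocks covering 7130 of 9297 bases and gaps of 49 to 819 bases. Its members were of mixed presence: 2 were held by all 3 assemblies, 2 by muscle-2 alone, and 1 each by muscle-3 alone and liver alone. It lay in a tandem gap, 10871 bases from the 3' end of a spliced locus of up to 4 exons (538213 to 551579, minus strand) found in all assemblies. Among the 7 runs of 5, the widest lay on scaffold17066 from position 523175 to 541360. Its blocks covered 17032 of 18186 bases of a divergent gap, 3687 bases from the 5' end of a spliced locus of up to 7 exons on the plus strand (545048 to 553398) and 4485 bases from that of one of up to 38 exons on the minus strand. All 5 members were held by muscle-2, 1 of them also by liver.

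The longest locus of each class showed the range of forms. That of all 3 assemblies was the longest of all, 18993 bases on scaffold13364 (1712309 to 1731301), in a convergent gap and 18802 bases from a 3' end. Liver held 1 block of it, from 1724563 to 1725512, while muscle-2 held 5 blocks and muscle-3 held 8 over nearly the whole length. On scaffold1651, 13284 bases (730991 to 744274) were held by muscle-2 in 3 blocks and by muscle-3 in 6, and by liver in none, 4815 bases beyond a 3' end. Liver with muscle-3 held 7882 bases on scaffold21190 (179692 to 187573), 267 bases from the 3' end of a spliced locus of all assemblies. Liver with muscle-2 held 5462 bases on scaffold22682 (1239212 to 1244673), 558 bases from the 3' end of a spliced locus seen in muscle-3 only.

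Among loci of 1 assembly, muscle-3 alone reached 6088 bases on scaffold23052 (151225 to 157312) and muscle-2 alone 6043 bases on scaffold23067 (419028 to 425070), at 1529 and 3271 bases from 3' ends in tandem gaps. Liver alone reached 5115 bases on scaffold942 (10958 to 16072), which has no spliced transcript. The longest locus of all 3 assemblies without a spliced neighbour was 8268 bases on scaffold8089. It was 1 block in each assembly, from 3935 to 12192 in liver, 3935 to 12202 in muscle-2 and 3941 to 12146 in muscle-3, so its ends lay close together in liver and muscle.

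The gene table gave a second reading of the scaffolds without spliced transcripts. It lists RPKM (reads divided by gene length and by the size of the library) for 15394 predicted genes with IDs but no names. Of the 2570 loci on scaffolds without spliced transcripts, 2121 (82.5%) were on scaffolds with no listed gene, against 53 of 3583 (1.48%) beside spliced transcripts. Of the 2443 scaffolds, 373 carried exactly 1 listed gene, so gene and locus could be set side by side by scaffold. Whether they overlap is not known, and both come from the same reads, so the levels are a description and not a check by separate data.

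Genes on these 373 scaffolds stood at a median RPKM of 0.720 in liver and 1.98 in muscle. The medians of all genes were 0.302 in liver and 0.727 in muscle. Genes alone on scaffolds with neither a spliced transcript nor such a locus numbered 490 with a median RPKM of 0.00215 in liver and 0.0448 in muscle. Reads of the same tissue gave both the levels and the blocks. These contrasts, also the one with the 490 genes, were therefore partly set in advance and are given as description. By class, the levels went with the assembly that held the locus. Where liver only held it, the median RPKM of the 11 genes was 2.02 in liver and 0.0217 in muscle, and 9 of the 11 were higher in liver. Where muscle only held it, the median RPKM of the 173 genes was 0.119 in liver and 1.13 in muscle, and 8 were higher in liver. Where both tissues held it, the medians of the 189 genes were 2.41 in liver and 4.29 in muscle, and 40 were higher in liver. Of all 15394 genes, 3271 were higher in liver, a share close to that of the 189. The lean of those 189 genes to muscle is therefore that of the whole gene list and not particular to these loci.

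Differences of 4-fold or more, on the scale of log2(RPKM + 1), were found for 11 of the 373 genes in the direction of liver (2.95%), against a background of 2.29% of all 15394 genes and 2.28% of the 1664 genes alone on their scaffold. In the direction of muscle there were 33 (8.85%), against 4.49% of all genes and 6.07% of the genes alone on their scaffold. The liver count is thus near its background. The muscle count is closer to that of genes alone on scaffolds with spliced transcripts, 62 of 801 (7.74%). The selection sets these counts in part, since a scaffold entered only where a block was assembled, and 2 of the 3 assemblies are muscle. Of the 33 genes, 17 were among the 173 of muscle-only loci and 16 among the 189 of loci of both tissues. Of the 11 towards liver, 3 were among the 11 genes of liver-only loci and 8 among the 189. These counts rest on the pseudocount of 1 RPKM and are given for others under the dependence on processing.

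Among these genes, the 2 largest differences in each direction are given with the locus on the gene's scaffold. Towards liver, evm.TU.scaffold182951.1 had 175 RPKM, against 0.786 RPKM in muscle, a difference of 6.62. The locus on its scaffold ran from position 23 to 481 in liver and from 83 to 443 in muscle-3, and muscle-2 held none. Next, evm.TU.scaffold185488.1 had 151 RPKM in liver, against 0.770 RPKM in muscle, a difference of 6.42, and the locus there, from 1 to 541, was held by all 3 assemblies. Towards muscle, evm.TU.scaffold1358.1 had 0.681 RPKM in liver, against 2282 RPKM in muscle, a difference of -10.41. A locus of 345 bases (491 to 835) on its scaffold was found in both muscle assemblies and not in liver. For evm.TU.scaffold174213.1 the liver level was 0.909 RPKM and the muscle level 2519 RPKM, a difference of -10.37, with a locus of 238 bases (39 to 276) on its scaffold in both muscle assemblies. What these genes encode is not reported, since no file used here names them.

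**Figure D5:**
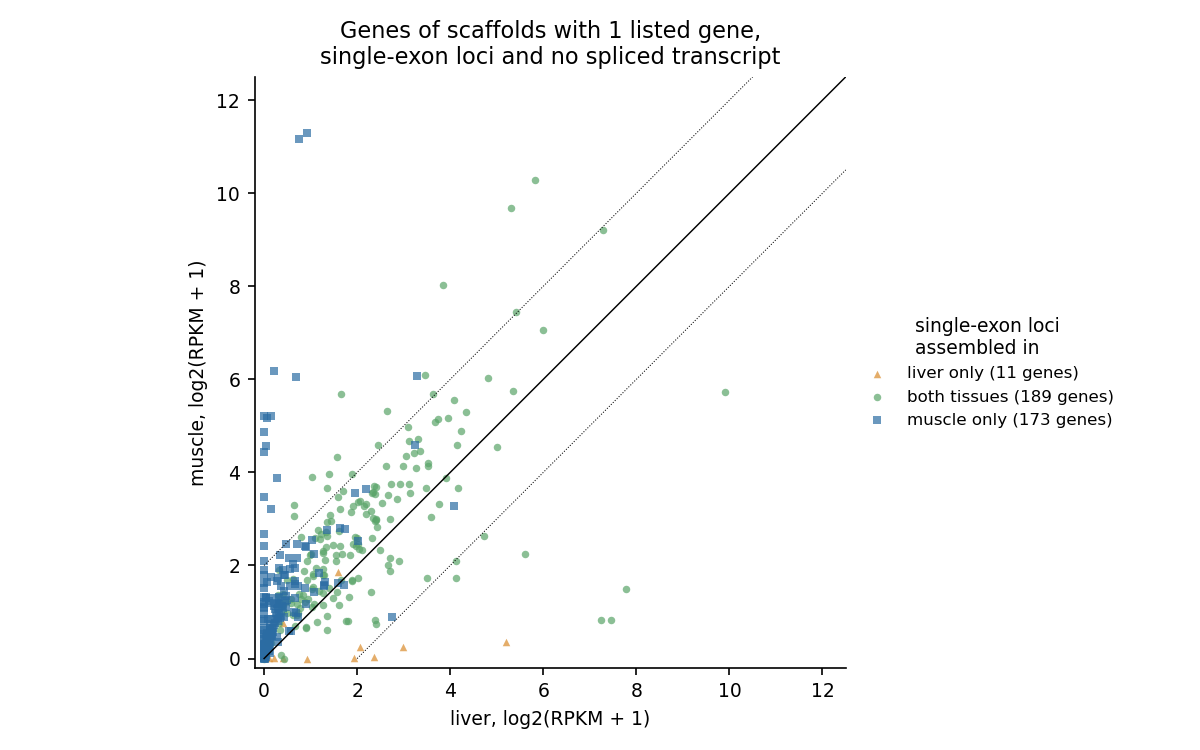
Level of 373 predicted genes in liver (horizontal axis) and muscle (vertical axis), both log2(RPKM + 1), for scaffolds with 1 listed gene, single-exon loci and no spliced transcript, marked by the tissues that assembled the loci. The solid line is equality and the dotted lines 4-fold. Above the upper dotted line lie 33 genes and below the lower one 11, and 9 of the 11 liver-only genes lie on the liver side of equality. Levels and loci come from the same reads, so the place of each class is a description and not a separate check.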

How the data were processed

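Total RNA of 1 liver and 1 muscle sample was sequenced. TopHat is among the tools in the submitters' processing notes, and the deposited assemblies name Cufflinks, a transcript assembler, as their source. Versions, build and settings: not given in the sources used here. Values per gene are RPKM computed by the authors, per the file headers; 3 entries that are not genes were left out of gene values. The Cufflinks score of a transcript, as deposited, was not used. Positions are 1-based.

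Spans were joined at 1 shared base, on either strand. Distances count the bases between a locus and the merged spliced spans of all assemblies. Clusters join loci with gaps of up to 1 kb. Functions were tested on simulated assemblies. Python 3.11.15, numpy 2.4.6, scipy 1.17.1 and matplotlib 3.10.9 were used.

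The loci, measures and lists were chosen with earlier results of these data known. Named loci are the longest of each presence class, the longest of all 3 assemblies without a spliced neighbour, the 2 runs with the most members (the wider where tied) and, of genes, the 2 largest differences in each direction. Alternatives were other length limits, merging, definitions of spliced, margins, muscle assemblies, distances and pseudocounts. Intervals and counts cover counting error only. No reference sequence was used, so sequences of the loci were not analysed here.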

Additional observations from a re-analysis of the deposited data

Results flagged for a closer look

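Reads that the gene table places in no gene were used in no comparison. Read at a length of 1 base, its entry for reads of no feature amounts to 24.3% of all reads in liver and 30.6% in muscle. Multiply aligned reads amount to 2.80% and 4.13%, and ambiguous reads to 0.0635% and 0.217%. The length of 1 base is an assumption, and the percentages rest on it. How many of these reads fall on single-exon loci was not tested.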

How the results depend on the processing

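Of the main results, the number of loci stayed within 1.5 times of 6153 under each alternative, from 4170 (minimum of 500 bases) to 8408 (no minimum). The share of tandem-gap loci nearer to the 3' end stayed above 50% under each, and left its interval with spans of 3 or more exons (63.1%), in liver by itself (72.8%) and in muscle-2 by itself (61.7%). Merging by strand changed nothing, as no block has a strand. With a minimum of 500 bases and with none, the median length was 1177 and 489 bases, the share in liver 29.5% and 36.7%, the share in 1 assembly 65.2% and 46.7%, and the share within 1 kb of another locus 26.3% and 15.0%. Outside spans of 3 or more exons these were 897 bases, 35.7%, 55.2% and 22.0%, with 60.8% within 5 kb of a spliced transcript. At least 1 kb from spliced spans, the median was 739 bases, 53.2% were in 1 assembly, 18.1% were within 1 kb of another locus and 49.9% within 5 kb of a spliced transcript. With muscle-2 as the only muscle assembly 36.2% were in liver, 76.3% in 1 assembly, 22.3% within 1 kb of another and 66.7% within 5 kb of a spliced transcript. With muscle-3 as the only one 50.6% were in liver, 68.3% in 1 assembly and 21.3% within 1 kb of another. Merging across 100 bases gave 15.9% within 1 kb of another. Requiring cover of 50% of the locus gave 31.6% in liver and 58.1% in 1 assembly. Counting blocks under 200 bases as presence, and taking each assembly by itself, were added after seeing the data; the first gave 36.9% in liver and 50.6% in 1 assembly. Limits of 1 kb and 10 kb in place of 5 kb gave 37.3% and 81.2%, and cluster gaps of 500 bases and 5 kb gave 15.7% and 27.9%. Genes past 4-fold were 19 in liver and 97 in muscle with a pseudocount of 0.1, and 6 and 17 with 5, against 11 and 33. The shares over all genes were not counted at pseudocounts of 0.1 and 5, so the counts there have no background to be read against. The causes of these shifts were not tested. No paired analysis was possible because there is 1 sample per tissue. Without replicates and without counts per locus, whether a block missing from an assembly was absent or too shallow to be assembled was not detectable.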
